A study of Mus musculus with 9 samples.

Results

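10 immediate early genes were followed through 9 RNA-Seq samples of the developing mouse cornea and its precursor tissue. They were Fos, Fosb, Jun, Junb, Egr1, Egr2, Egr3, Ier2, Atf3 and Nr4a1, which are 10 of the 19369 genes listed in at least 1 sample. The set was chosen by measured values, because Egr1 differed widely among replicates of the same stage, and the 9 other genes belong to the same class. The spread among replicates is therefore given as a description and carries no test, and Egr1 carries none between stages either. Every sample came from wild-type C57BL/6 embryos that carried no altered allele and received no agent before dissection. Each of the 3 samples at E10.5 held periocular neural crest (pNC), the mesenchyme around the early eye, pooled from 26 eyes and freed of ectoderm, lens and optic cup after a short digestion with the protease dispase. Each of the 3 samples at E14.5 pooled 18 corneas and each of the 3 at E16.5 pooled 12 corneas, with no digestion described for these stages. A sample is thus an average over several embryos and all cell types dissected. In such bulk tissue, fewer cells of a type and less RNA per cell cannot be told apart. Between E10.5 and either corneal stage, age, digestion and removal of the ectoderm differ together, so their effects cannot be told apart.

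Immediate early genes are transcribed within minutes of a growth factor, stress or mechanical stimulus, without the need for new protein. Signals through ERK and other kinases act on factors already bound to DNA, such as SRF with its ternary complex partners and CREB, and the transcripts are short-lived. Most of the products are transcription factors. Fos and Jun proteins pair to form the AP-1 complex, the Egr proteins are zinc finger factors, Nr4a1 is an orphan nuclear receptor, Atf3 is a stress-induced factor related to Fos and Jun, and Ier2 is a small nuclear protein. In corneal epithelium and stroma, AP-1 and Egr factors are known for responses to wounding and to growth factors.

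The DNA upstream of these genes is shown because the class is known for short control elements close to the start of transcription. RefSeq promoter sequences on GRCm38.p6 were used for 7 members, Fos, Fosb, Jun, Junb, Egr2, Atf3 and Nr4a1. No promoter of Egr1, Egr3 or Ier2 was searched, so the counts of members below say nothing about these genes. The letters TGACG, the core that CREB and ATF proteins recognize, were searched on either strand in the 250 bases before the start. They were found in 6 of the 7 members used and in 17.8% of the 32851 RefSeq promoters searched. Jun was the member without them. The complete palindrome TGACGTCA, which contains that core, was in 0 of 7 members and 1.55% of promoters. A CArG box, the element bound by SRF, was in 1 of 7 (Egr2) and 1.47% of promoters, and TGANTCA, the AP-1 element, was in 0 of 7 and 6.75%. The element GCGNGGGCG, which Egr proteins bind, was in Fosb and Nr4a1 and in 4.7% of promoters. All were searched on both strands and in the same 250 bases, so elements farther from the start would not be found. These matches are descriptions of the letters and not of binding. The 150 bases before the start are given 5′ to 3′ on the strand of the gene, for the 5 members whose window touched no exon of GENCODE vM21. Capitals mark TGACG or its complement CGTCA in Fos (chr12:85473740-85473889, plus strand), Junb (chr8:84978749-84978898, minus strand), Egr2 (chr10:67537719-67537868, plus strand) and Nr4a1 (chr15:101266696-101266845, plus strand), the CArG box in Egr2 and the Egr element in Nr4a1. The window of Jun (chr4:95052223-95052372, minus strand) has no marked letters. Only exact letters were searched, so near forms, such as the tgacatca in this window, were not marked.
Fos: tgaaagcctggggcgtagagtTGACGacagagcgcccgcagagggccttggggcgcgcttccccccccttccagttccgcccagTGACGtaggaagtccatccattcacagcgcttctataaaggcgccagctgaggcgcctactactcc
Jun: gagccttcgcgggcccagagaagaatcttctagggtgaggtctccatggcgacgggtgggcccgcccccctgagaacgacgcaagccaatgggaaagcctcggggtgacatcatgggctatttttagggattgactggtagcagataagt
Junb: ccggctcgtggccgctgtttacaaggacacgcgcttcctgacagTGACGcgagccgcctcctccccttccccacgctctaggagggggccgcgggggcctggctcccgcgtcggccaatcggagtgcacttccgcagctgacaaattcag
Egr2: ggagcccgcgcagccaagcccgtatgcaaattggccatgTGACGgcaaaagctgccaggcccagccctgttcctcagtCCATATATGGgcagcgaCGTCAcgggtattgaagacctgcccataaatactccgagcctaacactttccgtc
Nr4a1: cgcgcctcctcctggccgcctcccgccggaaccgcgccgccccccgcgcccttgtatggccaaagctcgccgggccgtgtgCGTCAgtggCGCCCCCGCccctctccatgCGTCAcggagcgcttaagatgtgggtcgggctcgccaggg
In Fos the cores lay 129 to 125 and 66 to 62 bases before the start, and in Egr2 they lay 111 to 107 and 55 to 51 bases before it, with the CArG box at 72 to 63.

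The libraries were of even depth, with totals of expected counts between 8745161 and 9069023. Tissue labels were checked by markers. The corneal stroma gene Kera (keratocan) was at 0.69 to 1.11 FPKM in the E10.5 samples and at 83.1 to 1244 FPKM in the 6 corneal samples, and the epithelial gene Krt5 at 2.74 to 4.13 and 343 to 2891 FPKM. FPKM values are fragments scaled to the length of the transcript and to the mapped fragments of the library. Some libraries stood apart from others of their stage, in genes picked after their values were seen. E14.5 replicate 1 had 102 FPKM of the corneal keratin Krt12 where replicates 2 and 3 had 0.62 and 2.06. E14.5 replicate 3 had 0.20 FPKM of Xist, the RNA of the inactive X chromosome in females, where replicates 1 and 2 had 105 and 69.9. Where their omission changed a call between stages or the members' spread, the value without them is given as well.

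Of the 4 AP-1 members, Fos and Jun were among the most abundant of the set, and all 4 varied strongly within a stage at E10.5 and E14.5. Fos (Entrez 14281, chr12:85473890-85477274), the partner of Jun proteins in AP-1, stood at 92.8, 69.1 and 7.43 FPKM in replicates 1, 2 and 3 at E10.5. It was at 5.63, 72.9 and 316 FPKM at E14.5 and at 167, 147 and 125 FPKM at E16.5. The highest E14.5 sample held 56.2 times the lowest, while the E16.5 samples lay within 1.33-fold of each other. Fosb (14282, chr7:19302696-19310118), a close relative of Fos, had 43.8, 31.1 and 1.37 FPKM at E10.5, 0.18, 12.9 and 82.0 FPKM at E14.5, and 6.88, 8.95 and 8.70 FPKM at E16.5. Its range at E14.5 was the widest of the set, from 6 to 2787 expected counts. Jun (16476, chr4:95049036-95052222), which forms dimers with itself or with Fos proteins, had 140.1, 107 and 46.7 FPKM at E10.5, 13.2, 40.1 and 127 FPKM at E14.5, and 76.0, 61.7 and 54.1 FPKM at E16.5. Junb (16477, chr8:84976909-84978748), a Jun relative of weaker transactivating activity, had 11.7, 10.4 and 2.16 FPKM at E10.5, 7.34, 13.8 and 45.3 FPKM at E14.5, and 66.6, 48.2 and 37.98 FPKM at E16.5. For all 4 genes replicate 3 was the lowest sample at E10.5 and the highest at E14.5.

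Among the Egr genes, Egr1 was abundant and followed the order of Fos at E10.5 and E14.5, while Egr2 and Egr3 were near the limit of detection. Egr1 (13653, chr18:34861207-34864956), a zinc finger activator, had 44.7, 36.9 and 4.59 FPKM at E10.5, 6.24, 113 and 332 FPKM at E14.5, and 74.0, 90.7 and 69.8 FPKM at E16.5. Its stage means were 28.7 ± 21.3, 150.2 ± 166 and 78.2 ± 11.1 FPKM (SD, n = 3 each), and the E14.5 samples overlapped those of both other stages. The highest of its 9 values came from E14.5 and the lowest from E10.5. Egr2 (13654, chr10:67534469-67542188), known for its part in hindbrain and Schwann cell development, had 0.86, 0.81 and 0.04 FPKM at E10.5, 0.19, 0.46 and 1.88 FPKM at E14.5, and 0, 0.11 and 0.08 FPKM at E16.5. These rest on few reads, with 23, 22 and 1 expected counts, 5, 12 and 50, and 0, 3 and 2. Egr3 (13655, chr14:70077317-70082613), a relative of Egr1, had 9, 4 and 1 expected counts at E10.5, 4, 4 and 8 at E14.5 and 0 in each E16.5 sample. Its level never exceeded 0.71 FPKM in a sample.

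The 3 remaining members followed the same order at E10.5 and E14.5. Ier2 (15936, chr8:84661331-84662852) had 78.4, 74.2 and 43.1 FPKM at E10.5, 14.8, 49.6 and 108 FPKM at E14.5, and 60.2, 47.6 and 40.4 FPKM at E16.5. Atf3 (11910, chr1:191170296-191183333) had 10.4, 4.07 and 1.78 FPKM at E10.5, 0.58, 0.86 and 4.02 FPKM at E14.5, and 0.69, 0.74 and 0.40 FPKM at E16.5. Nr4a1 (15370, chr15:101253902-101274795) had 6.84, 5.56 and 3.08 FPKM at E10.5, 3.23, 4.03 and 14.2 FPKM at E14.5, and 2.48, 4.10 and 3.33 FPKM at E16.5. Summed over the 10 members, the level was 430.3, 339 and 110.3 FPKM at E10.5, 51.7, 308 and 1031 FPKM at E14.5, and 454, 409 and 340.1 FPKM at E16.5. The highest E14.5 sample thus carried 19.9 times the summed level of the lowest, against 3.9 times at E10.5 and 1.34 times at E16.5.

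**Figure D1:**
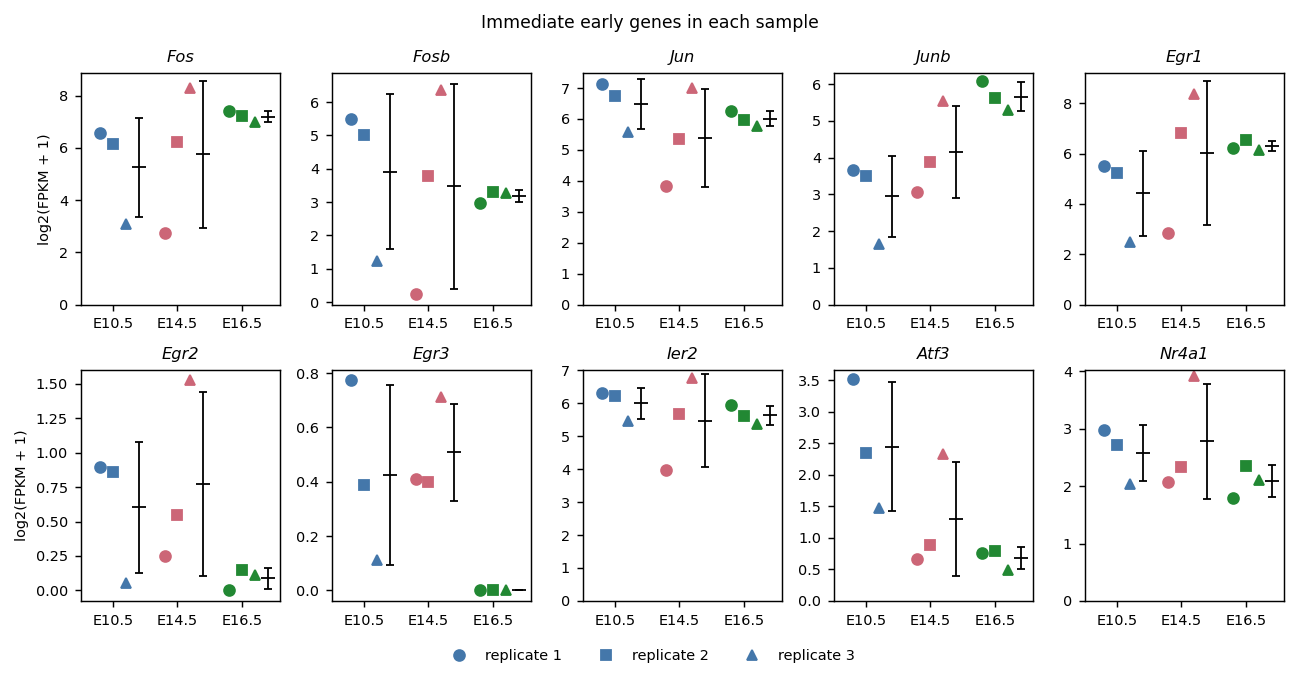
Level of each of the 10 genes as log2(FPKM + 1) in each sample, by stage on the horizontal axis, with the replicate given by the shape of the point and the mean ± SD of 3 samples beside the points. Each panel has its own vertical scale. The triangle, replicate 3, is the lowest point at E10.5 and the highest at E14.5 in all 10 panels, and the E16.5 points lie close together.

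The spread among replicates of the members was large beside that of other genes at E10.5 and E14.5, and closer to it at E16.5. It was measured as the SD of log2(FPKM + 1) over the 3 samples of a stage and set beside the 10866 tested genes with a mean of at least 5 FPKM in some stage. The members' median SD was 0.92 at E10.5 against 0.11 for all genes, 1.33 against 0.15 at E14.5, and 0.20 against 0.09 at E16.5. Fosb had the largest SD of all genes compared at E10.5, at 2.32, and 3 genes exceeded its 3.08 at E14.5. Fos had an SD of 1.90 at E10.5 and 2.82 at E14.5, and 4 and 5 genes exceeded it. Egr1, whose spread chose the set, had 1.68 and 2.85, with 5 and 4 genes above it. Pooled over the stages, 8 of the 10 members were among the 1% of genes with the largest SD, Egr2 was among the top 5%, and Egr3 was exceeded by 2064 genes. By stage, the top 1% held 6 members at E10.5, 7 members at E14.5 and 0 members at E16.5. The largest value among members at E16.5 was that of Junb, at 0.40, which 145 genes exceeded. Because the set was selected on this spread in Egr1, these ranks describe the samples and are not a test.

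Without E10.5 replicate 3, the members' median SD at E10.5 was 0.23. Without E14.5 replicate 3 it was 0.83 at E14.5, and without E14.5 replicate 1 it was 1.11. Leaving out any sample of E16.5 kept that stage's median between 0.16 and 0.22. A single E10.5 library thus held most of that stage's spread, whereas at E14.5 the members differed between each pair of libraries. There, replicate 2 exceeded replicate 1 in 9 of 10 members, by a median of 1.18 on the log2 scale, and replicate 3 exceeded replicate 2 in 10 of 10, by a median of 1.57.

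**Figure D2:**
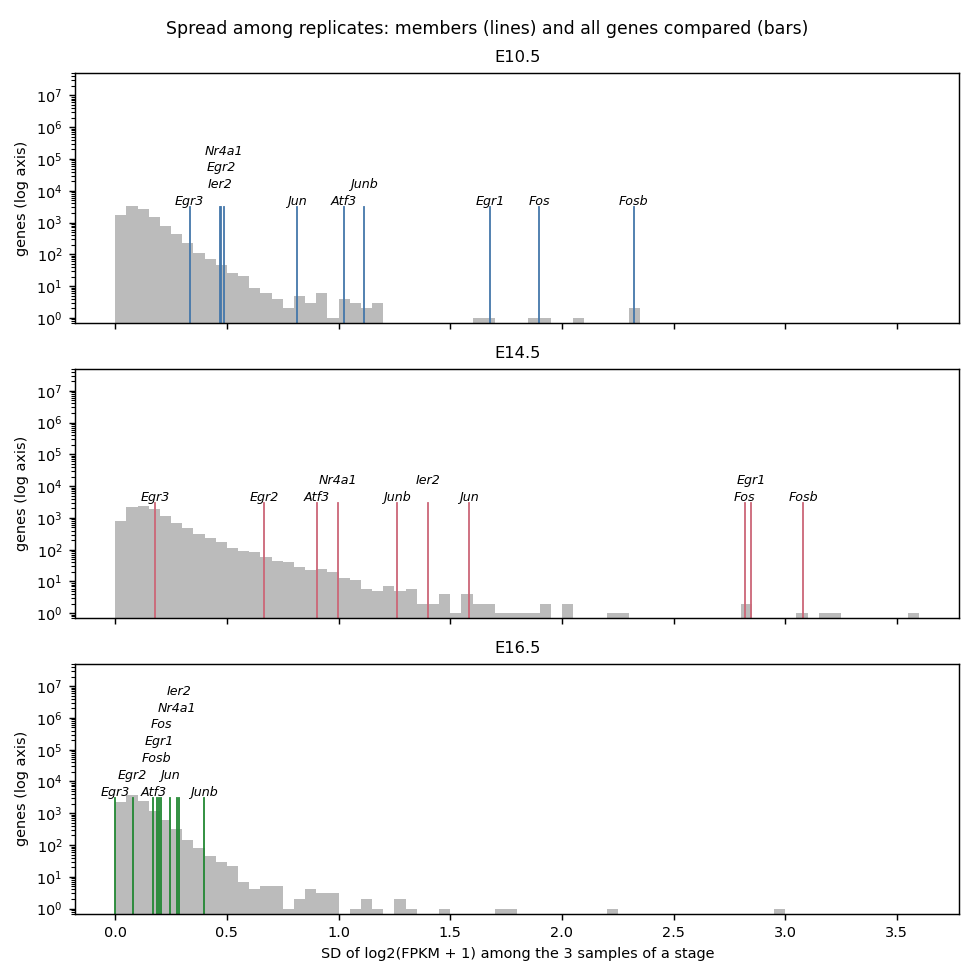
SD of log2(FPKM + 1) among the 3 samples of a stage (horizontal axis) for all 10866 genes compared, as a histogram with a log vertical axis, and for the 10 members as labelled lines. Fosb, Fos and Egr1 lie in the far right tail at E10.5 and E14.5, and all 10 members lie at or under 0.40 at E16.5.

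In 7 of the 10 members, more of the variation lay within stages than between them. Of the sum of squares of log2(FPKM + 1) over the 9 samples, 97.4% lay within stages for Fosb, 91.1% for Ier2 and 79.2% for Fos, and the values for Jun, Egr1 and Nr4a1 were 78.2%, 77.9% and 77.7%. It was lower for Egr2 at 63.8%, for Atf3 at 44.0%, for Egr3 at 39.0% and for Junb at 35.0%. The median was 77.8% over members and 13.8% over all genes compared. The members' median was 51.2% without E14.5 replicate 1 and 54.9% without E14.5 replicate 3. Junb, Atf3 and the scarcely detected Egr3 were the members in which stage accounted for the larger share.

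The members kept nearly 1 order across samples. At E10.5 replicate 1 was highest and replicate 3 lowest in 10 of 10 members. Among all genes compared, replicate 1 was highest in 31.2% and replicate 3 lowest in 39%. At E14.5 replicate 3 was highest in 10 of 10 members and replicate 1 lowest in 9, with Egr3 the exception. The matching shares over all genes were 24.6% and 41.3%. At E16.5 no order of all 3 replicates held, with replicate 1 highest in 4 members and replicate 2 in 5, and Egr3 at 0 in all. Replicate 3 was highest in 0 members and lowest in 6, where it was lowest in 27% of all genes compared. It exceeded replicate 2 in 0 of 10 members, with a median of -0.228 on the log2 scale, and in 6330 of 10866 genes compared. The 3 features together (lowest in E10.5 replicate 3, highest in E14.5 replicate 3, lowest in E14.5 replicate 1) were shown by 9 of 10 members and by 12% of all genes compared. The features were read from the values of these same members, so their count of 9 is a description and not a test.

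50 other known immediate early genes, listed with earlier results of these data in view, shared this order in part. Of these, 16 showed the 3 features together (32%), among them Dusp1, Zfp36, Cyr61, Jund, Btg2 and Srf. Dusp1, a phosphatase that switches off MAP kinases, had 46.8, 34.8 and 9.84 FPKM at E10.5, 2.87, 9.40 and 31.3 FPKM at E14.5, and 17.5, 17.6 and 13.9 FPKM at E16.5. Zfp36, which promotes decay of short-lived mRNAs, had 14.1, 10.9 and 3.61 FPKM at E10.5, 8.24, 15.3 and 50.2 FPKM at E14.5, and 81.7, 57.5 and 46.0 FPKM at E16.5. E10.5 replicate 3 was lowest in 40 of the 50 genes and E14.5 replicate 3 was highest in 30. Their spread was smaller than that of the members, with a median SD of 0.31, 0.34 and 0.17 at the 3 stages over the 36 that were compared. Of 24 genes of the upstream signal and its feedback (kinases, SRF partners, CREB relatives, Sprouty and Dusp inhibitors, Nab corepressors), 3 showed the 3 features (12.5%), namely Elk3, Dusp6 and Spry1. E10.5 replicate 3 was lowest in 18 of these 24 and E14.5 replicate 3 highest in 7. The median SDs of this list were 0.12, 0.14 and 0.08.

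The genes whose pattern was most like that of Egr1 were found by the root mean square difference of log2(FPKM + 1), after centring each gene on its own mean over the 9 samples. Outside the members these were H2bc8 (0.97), Zfp36 (1.10), Igfbp5 (1.22), H1f2 (1.28) and Klf4 (1.30), where the median of 10934 genes was 1.82. Fos was closer than any of them at 0.58, and Junb was at 1.04. The other members ranged from 1.19 for Fosb to 1.92 for Atf3, which was farther from Egr1 than the median gene. After centring within stages, the nearest were Dusp1 (0.73), Mpo (0.85), Snora31 (0.87), Zfp36 (0.95) and H2bc8 (0.95), against a median of 1.57. Fos (0.21) and Fosb (0.40) were closer, and the other members ranged from 0.79 for Jun to 1.45 for Egr3. H2bc8 encodes a histone, Igfbp5 a binding protein of insulin-like growth factors, Klf4 a zinc finger factor of surface epithelia, and Mpo the peroxidase of neutrophil granules.

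Markers of other cell types differed between the same libraries, some lists with the members and some against them. At E10.5, replicate 3, the lowest for all members, was also lowest for 6 of 6 vascular endothelium markers, 6 of 6 red blood cell markers, 5 of 6 retina and pigment epithelium markers and 5 of 6 markers of glia and neurons. Summed FPKM in replicates 1, 2 and 3 was 173, 162 and 109 for the vascular list, 5415, 6143 and 3904 for the red blood cell list, 60.8, 54.7 and 46.6 for the retinal list, and 180.2, 195 and 118 for the list of glia and neurons. The surface epithelium list ran the other way at this stage, with replicate 1, the highest for all members, lowest for 8 of 8 markers and replicate 3 highest for 5, and summed levels of 29.5, 41.5 and 46.4 FPKM. The retinal factor Rax was at 5.24, 6.63 and 0.61 FPKM. At E14.5, replicate 1, the lowest for 9 members, was highest for 8 of 8 surface epithelium markers and 6 of 8 corneal stroma markers, and lowest for 6 of 6 vascular markers. The summed surface epithelium level was 1938, 608 and 733 FPKM in the 3 replicates, the stroma level 7409, 3219 and 4938 FPKM, the vascular level 47.2, 80.5 and 88.4 FPKM, and the red blood cell level 158, 647 and 656 FPKM. No gene of these lists was at 0 at E10.5 or E14.5. E14.5 replicate 3, the highest for all members, also had the highest level of the Y-linked gene Ddx3y, at 19.8 FPKM against 12.1 and 13.6, beside its low Xist. At E10.5, Xist was at 71.3, 117 and 72.2 FPKM in replicates 1, 2 and 3, and Ddx3y at 8.12, 2.25 and 9.28 FPKM. The part of cell composition or of the sex of the embryos in the spread of the members was not tested.

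Genes of the heat shock response, another stress program, mostly departed from the order of the members at E10.5 and E14.5. At E10.5 replicate 3, lowest for all members, was highest for 7 of 10 heat shock genes, against 40% of all genes compared. It was lowest for 1, the inducible Hspa1a, at 5.12, 6.45 and 3.15 FPKM in replicates 1, 2 and 3. At E14.5 replicate 1, lowest for 9 members, was lowest for 6 of 10 heat shock genes (41.3% of all genes compared). Replicate 3, highest for all members, was highest for 1 (24.6% of all genes compared). The inducible Hspa1a and Hspa1b were highest in E14.5 replicate 1, at 24.9 and 30.2 FPKM, and spanned 2.13-fold and 2.55-fold at that stage. Hspb1 was also highest there, at 253 FPKM, and spanned 1.95-fold. The summed level of the list varied 1.11-fold at E10.5 and 1.09-fold at E14.5, where that of the members varied 3.9-fold and 19.9-fold. The sum largely follows the abundant Hspa8. At E10.5 this gene was at 1711 to 1871 FPKM and the sum at 2813 to 3125 FPKM, so the sum says little about the scarcer genes. No heat shock gene was at 0 in any sample.

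**Figure D3:**
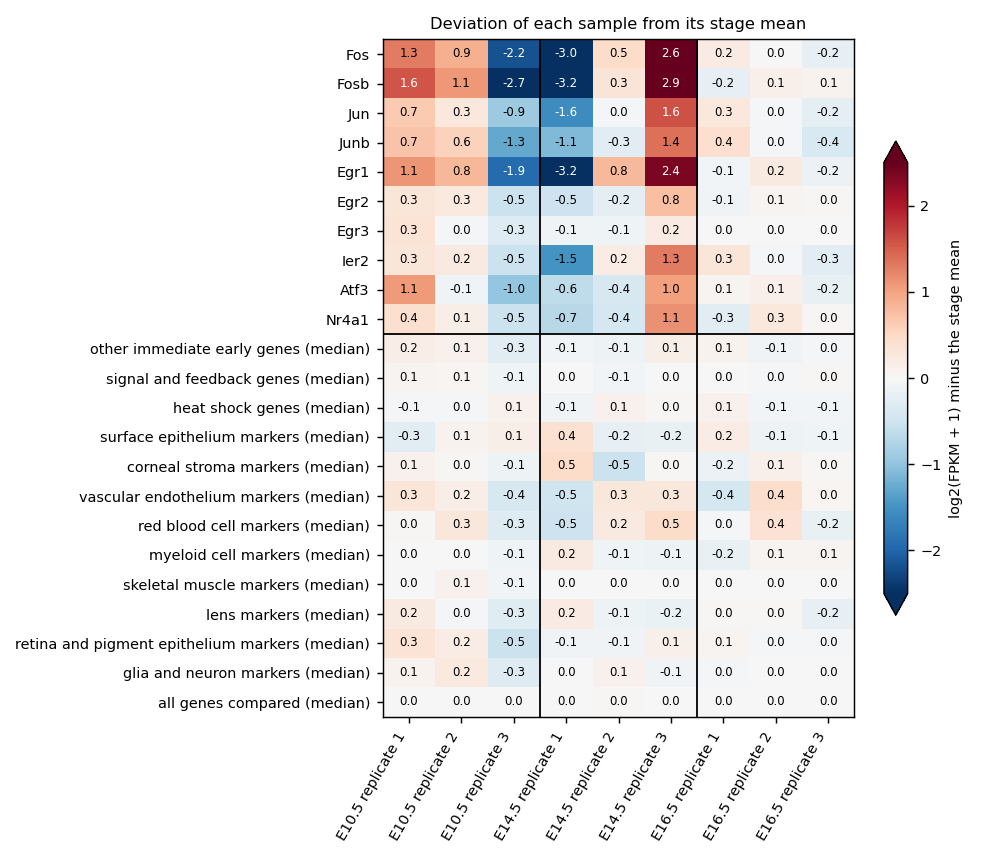
Deviation of each sample (columns) from its stage mean of log2(FPKM + 1), by colour and printed value, for the 10 members and, as medians, for the marker and gene lists and for all genes compared (rows). E10.5 replicate 3 and E14.5 replicate 1 are below the stage mean in all 10 members, E14.5 replicate 3 is above it in all 10, and the bottom row of all genes is at 0.0 throughout.

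Between E10.5 pNC and E14.5 cornea, no member was called different. A call required an adjusted p (Benjamini-Hochberg) under 0.05 in edgeR's quasi-likelihood test and a log2 fold change of 1 or more in either direction, and 13.6% of the 14771 genes tested were called higher and 7.98% lower at E14.5. Of the 9 members other than Egr1, 8 were tested, since Egr3 fell under the filter on low counts. Junb was at 8.07 ± 5.16 FPKM at E10.5 and 22.1 ± 20.3 FPKM at E14.5 (SD, n = 3), a log2 fold change of 1.46 ± 0.66 (SE, edgeR adjusted p = 0.0809). Atf3 was at 5.42 ± 4.48 and 1.82 ± 1.91 FPKM, a log2 fold change of -1.57 ± 0.71 (edgeR adjusted p = 0.0816). Both had an unadjusted p under 0.05. The log2 fold changes of Fos, Egr2, Nr4a1 and Fosb were 1.23, 0.56, 0.47 and 0.33, and those of Ier2 and Jun were -0.18 and -0.70, with SEs of 0.51 to 1.19. The median over the 8 was 0.40 and that over all genes tested 0.02. No member had E14.5 values that lay wholly above or below those of E10.5, whereas 61% of all genes tested did. Single libraries moved these values both ways. Without E14.5 replicate 3 the value of Junb was 0.35, and without E10.5 replicate 1 that of Atf3 was -0.68. Calls were gained by Atf3 without E10.5 replicate 3 (-2.00), Fos and Junb without E14.5 replicate 1 (1.80 and 1.88), and Jun and Atf3 without E14.5 replicate 3 (-1.91 and -2.93).

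Between E10.5 pNC and E16.5 cornea, Junb rose and Atf3 fell. Here and from E10.5 to E14.5, age cannot be told apart from the digestion and the removal of ectoderm at E10.5. Junb reached 50.9 ± 14.47 FPKM, a log2 fold change of 2.80 ± 0.66 (edgeR adjusted p = 0.00283), with every E16.5 sample above every E10.5 sample. Atf3 was then at 0.61 ± 0.18 FPKM, a log2 fold change of -2.98 ± 0.82 (edgeR adjusted p = 0.00737), again without overlap. These were 1 of 8 tested members higher and 1 lower, where 19.4% of all genes tested were called higher and 15.4% lower. Both calls held on leaving out any 1 of the 6 samples of these stages, with edgeR adjusted p between 0.005 and 0.0103 for Junb and between 0.00313 and 0.038 for Atf3. Fos, at 56.5 ± 44.1 and 146 ± 21.0 FPKM, had a log2 fold change of 1.52 ± 1.05 (edgeR adjusted p = 0.216), although its E16.5 samples all lay above the E10.5 ones. Egr2 had -2.94 ± 1.30 (edgeR adjusted p = 0.0649) on 23, 22 and 1 against 0, 3 and 2 expected counts, and was called without E10.5 replicate 3 (-3.49). Fosb had -1.48 ± 1.26, and Jun, Nr4a1 and Ier2 lay between -0.49 and -0.25. The values of the stages did not overlap for 5 of the 10 members (Fos, Junb and Egr1 higher, Egr3 and Atf3 lower), against 77.2% of all genes tested. The median log2 fold change was -0.48 over the 8 members and 0.00 over all genes.

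Between E14.5 and E16.5 cornea, Egr2 fell from 0.84 ± 0.91 to 0.06 ± 0.06 FPKM and passed the threshold narrowly. Its log2 fold change was -3.50 ± 1.24 (edgeR adjusted p = 0.0493) on 5, 12 and 50 against 0, 3 and 2 expected counts, and all E16.5 samples lay below those of E14.5. This was 1 of 8 tested members, where 6.26% of all genes tested were called higher and 5.47% lower. Among the 6 samples of these stages, the call was lost on leaving out any but E14.5 replicate 1, with edgeR adjusted p between 0.0577 and 0.238. Junb had 1.34 ± 0.60 (edgeR adjusted p = 0.109), Atf3 -1.42 ± 0.89, Fosb -1.82 ± 1.27 and Nr4a1 -0.96 ± 0.53. Fos, Jun and Ier2 differed little in mean, at 0.29, 0.23 and -0.07, with SEs of 0.52 to 1.02 that leave wide room for a difference. Without E14.5 replicate 1, Fosb (-2.40), Egr2 (-3.97) and Nr4a1 (-1.32) were called. Without E14.5 replicate 3, Junb (2.45) was called, while Atf3 was at -0.05, Fosb at 0.51 and Nr4a1 at 0.05. Egr2 and Egr3 were the 2 of 10 members whose stages did not overlap, both lower at E16.5, against 53.2% of all genes tested. The median was -0.52 over the 8 members and -0.02 over all genes.

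Egr1 is given between stages without a test. The log2 ratio of its fitted levels was 2.40 from E10.5 to E14.5, 1.60 from E10.5 to E16.5 and -0.80 from E14.5 to E16.5. The E16.5 samples all lay above the E10.5 samples, while E14.5 overlapped with both. The 3 comparisons share samples, so their values are not independent of each other. The large spread of the members enters these tests as a median edgeR dispersion of 0.37 over the 9 members that have one, against 0.01 over all genes compared.

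**Figure D4:**
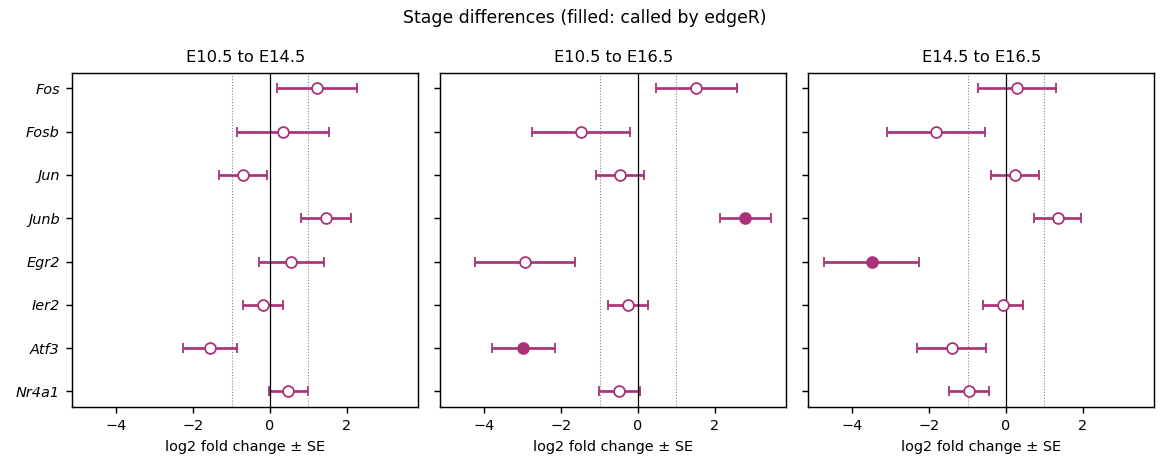
log2 fold change ± SE from edgeR for the 8 tested members other than Egr1 in each pair of stages, with the later stage higher to the right and dotted lines at a log2 fold change of -1 and 1. Filled points, called at an adjusted p under 0.05, are Junb and Atf3 from E10.5 to E16.5 and Egr2 from E14.5 to E16.5.

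The other immediate early genes were called at shares both above and below those of all genes tested. Of the 50, 46 were tested, and 3 were called higher and 5 lower from E10.5 to E14.5, 10 higher and 2 lower from E10.5 to E16.5, and 7 higher and 1 lower from E14.5 to E16.5. The shares of all genes tested called higher and lower were 13.6% and 7.98%, 19.4% and 15.4%, and 6.26% and 5.47%, so the 10 of 46 called higher from E10.5 to E16.5 were close to the share of all genes. The Fos relative Fosl2 was at 0.90 ± 0.06, 29.1 ± 15.7 and 87.8 ± 10.2 FPKM at the 3 stages, with log2 fold changes of 4.99 ± 0.36, 6.75 ± 0.37 and 1.76 ± 0.28 (edgeR adjusted p = 1.59e-06, 1.61e-07 and 0.0014). Ier3, a regulator of cell survival, rose by 2.76 and 3.39 on the log2 scale from E10.5 to E14.5 and E16.5, and Nfkbia, the inhibitor of NF-κB, rose by 1.22 from E10.5 to E14.5. Zfp36 rose by 2.84 ± 0.62 from E10.5 to E16.5 (edgeR adjusted p = 0.00184). From E14.5 to E16.5, Gadd45b rose by 1.91 and Maff, a small Maf factor that can pair with Fos, by 1.90. Gadd45g, Ier5l and Myc fell by 1.91, 1.72 and 1.33 on the log2 scale from E10.5 to E14.5, and the phosphatase Dusp2 fell by 3.52 from E10.5 to E16.5. The medians of the 46 were 0.06, 0.29 and 0.29.

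Of the 24 genes of the upstream signal and its feedback, 1 was called higher and 4 lower from E10.5 to E14.5, and 2 higher and 4 lower from E10.5 to E16.5, where the shares of all genes tested were 13.6% and 7.98%, and 19.4% and 15.4%. The 4 lower in both were the ERK phosphatases Dusp4, Dusp5 and Dusp6 and the inhibitor Spry2. Dusp6 was at 28.1 ± 7.37, 7.98 ± 2.71 and 4.14 ± 0.61 FPKM at the 3 stages, with log2 fold changes of -1.82 ± 0.25 and -2.61 ± 0.27 from E10.5 (edgeR adjusted p = 0.000158 and 8.32e-06). Spry2 had -2.53 and -1.69, and Dusp5 -2.76 and -5.05. Other inhibitors of ERK signaling on the list were not called, with 0.46 and 0.43 for Spry1, 0.35 and 0.60 for Spry4, 0.50 and 0.70 for Spred1 and 0.03 and 0.21 for Spred2. The rises of Spred1 (edgeR adjusted p = 0.000811 and 4.16e-05) missed only the fold-change minimum. So did that of Spry4 from E10.5 to E16.5 (edgeR adjusted p = 0.0375). Nab1, a corepressor that binds Egr proteins, rose by 1.56 ± 0.22 and 2.30 ± 0.22 (edgeR adjusted p = 0.000158 and 4.33e-06), and Mkl1, a coactivator of SRF, rose by 1.05 from E10.5 to E16.5. From E14.5 to E16.5, 0 of the 24 were called by edgeR, where 12 had an unadjusted p under 0.05 and DESeq2 called 1.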

How the data were processed

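The authors mapped filtered reads of the 9 pooled samples, grouped here by their labels, with Bowtie 2 and HISAT to GRCm38 and quantified genes with RSEM (versions not given in the sources used here). They deposited an expected count per gene, an estimate that is not normalized, and an FPKM value, which the authors scaled to transcript length and mapped fragments. Genes missing from a sample were taken as 0. Symbols and coordinates were matched by Entrez identifier to RefSeq genes of GRCm38 for 19312 of 19369 genes.

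Rounded expected counts were filtered by stage with filterByExpr, scaled with TMM and fitted with edgeR 4.0.16 in R 4.3.3 as 1 quasi-likelihood model of stage over all 9 samples. Adjusted p-values (Benjamini-Hochberg) cover all 14771 genes tested. NOISeq on FPKM, the method of the study, was recomputed as an alternative (zeros set to 0.01, probability of at least 0.8). DESeq2 1.42.0, limma 3.58.1 on log2(FPKM + 1) and log2(FPKM + 0.1), other scalings and filters, a replicate block and the omission of each sample were also tried. Scripts were tested on simulated data. P-values judge a difference between stages against the spread between pools.

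The members and gene lists were chosen with earlier results of these data known. Listed genes given by size were the 3 largest called rises and falls per list and comparison, and genes like Egr1 were the 5 nearest. The other examples were picked after their values were seen.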

Additional observations from a re-analysis of the deposited data

How the results depend on the processing

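With 3 pools per stage, the SEs of the members' log2 fold changes ran from 0.51 to 1.30, and Egr2 and Egr3 were limited by low counts. The number of members called between E10.5 and E14.5 was 0, and 1 with DESeq2, 2 with NOISeq and 0 to 2 when 1 sample was left out (here and in what follows, for calls and fold changes, 1 of the 6 samples of the stages compared). Between E10.5 and E16.5 it was 2, and 1 with a minimum of 10 CPM (counts scaled to the library) in 3 samples, which removed Atf3 from the test, 4 with NOISeq (Fos and Junb higher, Fosb and Atf3 lower) and 2 to 3 when 1 sample was left out. Between E14.5 and E16.5 it was 1, and 0 with RLE size factors, the same stricter minimum, limma with either pseudocount, or the 6 samples compared alone, 2 without a filter or with NOISeq, and 0 to 3 when 1 sample was left out. Samples of the same number did not deviate together (mean correlation of deviations -0.0165 over 9 same-numbered pairs and 0.00921 over 18 others). A replicate block gave 0 calls between E14.5 and E16.5 and moved no other count of calls by over 1.5 times. The cause of these changes was not tested.

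Without a fold-change minimum, 14, 23 and 16 of the other immediate early genes and 9, 17 and 8 of the signal and feedback genes were called in the 3 comparisons. Of the signal and feedback genes, NOISeq called 2 between E10.5 and E14.5, and 1 was called between E14.5 and E16.5 with library totals only, limma on log2(FPKM + 0.1) or DESeq2, and 0 to 1 when 1 sample was left out.

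Log2 fold changes that turned in sign were those of Fosb from E10.5 to E14.5 (-0.43 with the replicate block, -0.44 and -0.92 with limma and pseudocounts of 1 and 0.1, and -1.99 to 0.98 when 1 sample was left out) and from E14.5 to E16.5 (0.30 with limma and 0.1, and -2.40 to 0.51). Ier2 turned from E14.5 to E16.5 (0.055 with the block, 0.17 and 0.18 with limma, and -0.53 to 0.80). When 1 sample was left out, Fos ranged from -0.56 to 1.80 (E10.5 to E14.5) and from -0.27 to 2.08 (E14.5 to E16.5), Jun from -0.24 to 1.44 (E14.5 to E16.5), Egr2 from -0.84 to 1.03 and Ier2 from -1.05 to 0.28 (both E10.5 to E14.5), and Nr4a1 from -0.54 to 0.83 (E10.5 to E14.5) and from -1.32 to 0.047 (E14.5 to E16.5). None of these differences was called with all samples.

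The members' median SD ranged from 0.23 to 1.26 at E10.5, from 0.83 to 1.86 at E14.5 and from 0.16 to 0.22 at E16.5 when 1 sample of the stage was left out. Their median share of variation within stages ranged from 51.2% (without E14.5 replicate 1) to 78.6%. The median percentage of genes with a larger pooled SD was 0.27, 0.52 with log2(FPKM + 0.1), and 0.198 to 0.704 (without E14.5 replicate 3) when 1 sample was left out.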
